A study of Mus musculus with 2 samples.

Results

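Distal chromosome 12 was followed from the position at which the raised proximal block of the H19Δ2 line ends to the last array position of the chromosome. Its members were all non-control array positions shared by both arrays that lie on chromosome 12 of the mouse build mm9 and start above 49267874. There were 4822 such positions of 170305 in the series, each a 60-base probe, and they ran from 49303600 to 121252543 with a median spacing of 10.6 kb. Within this arm, 106 positions starting between 110.3 and 111.9 Mb formed the Dlk1-Dio3 window, 459 positions starting above 114.4 Mb formed the Igh window, and 4257 positions made up the remaining arm.

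Array comparative genomic hybridisation (CGH) sets the DNA of a test sample, in one dye, against that of a reference, in another, at many positions of the genome. The test DNA, in Cy5, came from H19Δ1 or H19Δ2, androgenetic haploid embryonic stem cells (AG-haESCs, also called ahESCs) from which H19, a maternally expressed long non-coding RNA gene, and its imprinting control region had been removed by CRISPR-Cas9-aided homologous recombination. The reference DNA, in Cy3, came from AGH-OG-3, labelled OG-3, the unedited parental line. AG-haESCs derive from embryos whose nuclear genome is paternal only. All the lines carry an Oct4-eGFP transgene and have a haploid karyotype by their labels, and each H19Δ line grew from 1 picked colony. By the methods, H19Δ1 held a loxP-flanked PGK-neo cassette at the deleted site, and both lines came from the same targeting plasmids. They were kept with leukemia inhibitory factor, CHIR99021 and PD0325901 in serum medium, and feeder cells were depleted before DNA extraction, with the remaining share not given in the sources used here. Each line was hybridised once, without a dye swap, and the arrays shared a slide and a scan. No test between lines was therefore possible, no value below has a replicate check, and a dye effect on the ratio of an H19Δ line to AGH-OG-3 cannot be told apart from a difference in copies, while both H19Δ lines were read in the same dye. Every SD below is a spread over array positions of 1 array.

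Array CGH reports copies relative to the reference and to the typical autosomal position of the same array, so that a log2 ratio of 0 stands for the same relative copy number as in AGH-OG-3. A shift over a whole arm that stays well below that of a full copy can be seen only by averaging many positions, since a single position here carried a noise of about 0.12 on the log2 scale. The Dlk1-Dio3 domain is an imprinted cluster. Dlk1 (a Notch-family ligand that restrains differentiation), Rtl1 (a retrotransposon-derived gene needed in the placenta) and Dio3 (the deiodinase that inactivates thyroid hormone) are expressed from the paternal copy, while the non-coding RNAs Gtl2/Meg3, Rian and Mirg and the miRNAs lying among them are expressed from the maternal copy. The Igh locus encodes the immunoglobulin heavy chain, whose V, D and J segments are joined by recombination in B cells and stay in the germline arrangement in other cells.

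Array positions were not assigned to genes, for want of gene models on the build of the array. In the order of RefSeq genes on GRCm38.p6, 103 genes lie from Dlk1 to Dio3, of which 3 are protein-coding (Dlk1, Rtl1 and Dio3) and 61 are miRNA genes. The same order puts 121 V segments inside Igh and 15 protein-coding genes, from Zfp386 and Vipr2 to Macc1 and Tmem196, between Igh and the end of the chromosome. The Igh window as defined by its start therefore holds more than Igh.

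The promoters of Dlk1, Meg3 and Dio3 are shown because they mark the outer paternally expressed genes and the maternally expressed gene whose methylation the study followed. Each runs from 250 bases before to 50 after the annotated start, 5′ to 3′ on the plus strand, from RefSeq on GRCm38.p6, with CG dinucleotides in capitals. They span chr12:109452573-109452872, chr12:109540746-109541045 (the first of 2 Meg3 entries) and chr12:110278980-110279279 of that build, whose coordinates are not those of the array.
Dlk1: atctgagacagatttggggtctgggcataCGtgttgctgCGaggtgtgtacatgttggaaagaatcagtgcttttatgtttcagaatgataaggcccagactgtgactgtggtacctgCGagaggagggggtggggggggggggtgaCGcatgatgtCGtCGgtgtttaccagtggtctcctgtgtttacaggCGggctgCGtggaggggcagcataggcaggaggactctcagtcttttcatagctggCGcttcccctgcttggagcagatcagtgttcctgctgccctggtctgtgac
Meg3: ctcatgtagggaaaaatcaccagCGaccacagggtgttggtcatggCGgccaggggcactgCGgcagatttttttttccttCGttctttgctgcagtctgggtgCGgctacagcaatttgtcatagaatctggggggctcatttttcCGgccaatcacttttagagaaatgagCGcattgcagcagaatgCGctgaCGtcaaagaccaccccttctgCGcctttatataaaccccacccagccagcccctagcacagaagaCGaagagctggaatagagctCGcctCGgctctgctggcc
Dio3: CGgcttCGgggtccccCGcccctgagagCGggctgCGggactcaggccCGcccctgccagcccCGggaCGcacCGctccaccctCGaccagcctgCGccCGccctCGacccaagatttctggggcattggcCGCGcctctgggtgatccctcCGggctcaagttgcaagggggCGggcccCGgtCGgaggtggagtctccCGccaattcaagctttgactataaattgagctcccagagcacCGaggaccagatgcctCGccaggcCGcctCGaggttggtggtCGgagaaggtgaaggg
CG dinucleotides, in which mammalian DNA is methylated, numbered 9 in the Dlk1, 13 in the Meg3 and 25 in the Dio3 window, where the median over 32851 RefSeq promoters was 7. As many or more were held by 45.8%, 37.9% and 18.4% of all promoters. Array CGH does not read methylation, so these letters describe what the window holds and not what was measured on it.

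RefSeq listed 113 mature miRNAs between Dlk1 and Dio3, and 9 seeds (bases 2 to 8, which pair with target RNAs) were held by 2 of them each. One such pair, miR-379-5p and miR-1193-5p, is shown with miR-127-3p, which is transcribed antisense to Rtl1, and miR-410-3p, with the seed in capitals.
miR-127-3p: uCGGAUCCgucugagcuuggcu
miR-379-5p: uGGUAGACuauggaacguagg
miR-1193-5p: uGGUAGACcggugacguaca
miR-410-3p: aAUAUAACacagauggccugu

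The arrays were alike in brightness over the arm. Median processed intensities were 1053 (Cy3) and 1048 (Cy5) on the H19Δ1 array, and 1049 (Cy3) and 1124 (Cy5) on the H19Δ2 array. No spot of the arm was saturated, and 1 member in Cy3 and 2 in Cy5 were not well above background, all on the H19Δ1 array. Outlier flags left 3 members without a value in H19Δ1 and 2 in H19Δ2. For 23 members with several spots the SD between spots was 0.117 and 0.110. The deletion was checked on chromosome 7, where positions starting at 149761403 and 149768746 stood at -3.67 and -3.79 in H19Δ1 and at -3.70 and -2.92 in H19Δ2.

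Distal chromosome 12 stood at the level of the reference in H19Δ1 and slightly above it in H19Δ2. The mean log2 ratio of the arm was 0.0017 ± 0.12 (SD over 4819 positions) in H19Δ1 and 0.083 ± 0.12 (SD over 4820 positions) in H19Δ2, a linear ratio 0.117% and 5.89% above 1. Values above 0 made up 51.2% of positions in H19Δ1 and 76.4% in H19Δ2. Centring on the autosomal median leaves equal shares of all autosomal positions above and below 0 on each array. The difference, H19Δ2 minus H19Δ1, averaged 0.081 ± 0.13 over the 4817 positions measured on both arrays. Proximal chromosome 12, by contrast, stood at -0.0062 ± 0.12 in H19Δ1 and at 0.55 ± 0.13 in H19Δ2 over 2323 positions each.

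The arm was read in bins of 5 Mb from the border. In H19Δ2 the 15 bin means were, in order, 0.13, 0.13, 0.067, 0.047, 0.085, 0.078, 0.071, 0.083, 0.064, 0.057, 0.081, 0.082, 0.091, 0.071 and 0.063. In H19Δ1 they lay between -0.021 and 0.018. Of the 15 bins, 14 were above 0.05 in H19Δ2 and 0 in H19Δ1, where 3.38% and 0.844% of 474 bins of the other autosomes were above that value. In the 72 bins of 1 Mb, the means ran from 0.012 to 0.15 in H19Δ2 and from -0.044 to 0.047 in H19Δ1. Bins of this size were not counted on the other autosomes, and bins of 1 array are not separate observations.

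**Figure D1:**
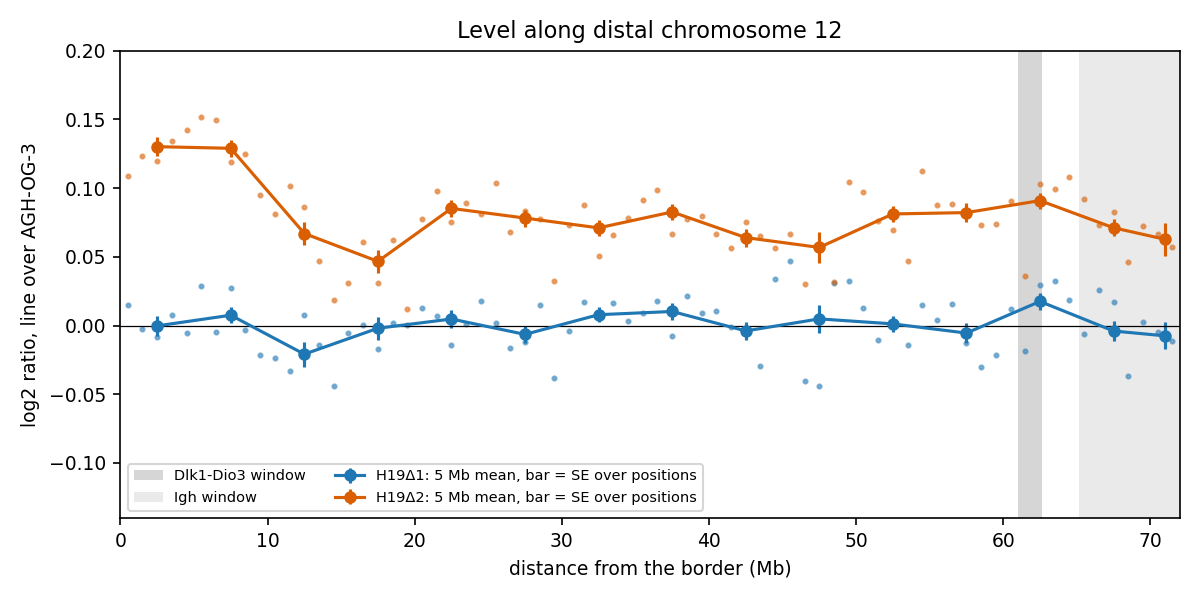
Mean log2 ratio of line over AGH-OG-3 against the distance from the border in Mb, in 5 Mb bins (circles joined by lines, bars are standard errors over positions of 1 array) and 1 Mb bins (small dots), for H19Δ1 (blue) and H19Δ2 (orange). The H19Δ2 bins lie between 0.047 and 0.13 and the H19Δ1 bins between -0.021 and 0.018. Shading marks the Dlk1-Dio3 and Igh windows.

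The level of the arm in H19Δ2 was set against the rest of that array. The means of the 18 other autosomes ranged from -0.043 on chromosome 5 to 0.055 on chromosome 6 in H19Δ2, and from -0.022 to 0.012 in H19Δ1. Of 23 consecutive runs of 4820 positions on those autosomes, 1 was at or above the arm in H19Δ2, at 0.12, and it lay on chromosome 6. The runs had an SD of 0.031, so the arm's mean was more than that spread above 0 in this line. Of the 16 bins of 5 Mb above 0.05 outside chromosome 12, 12 were among the 30 bins of chromosome 6. A low raised level over a long stretch in H19Δ2 was thus not particular to distal chromosome 12.

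**Figure D2:**
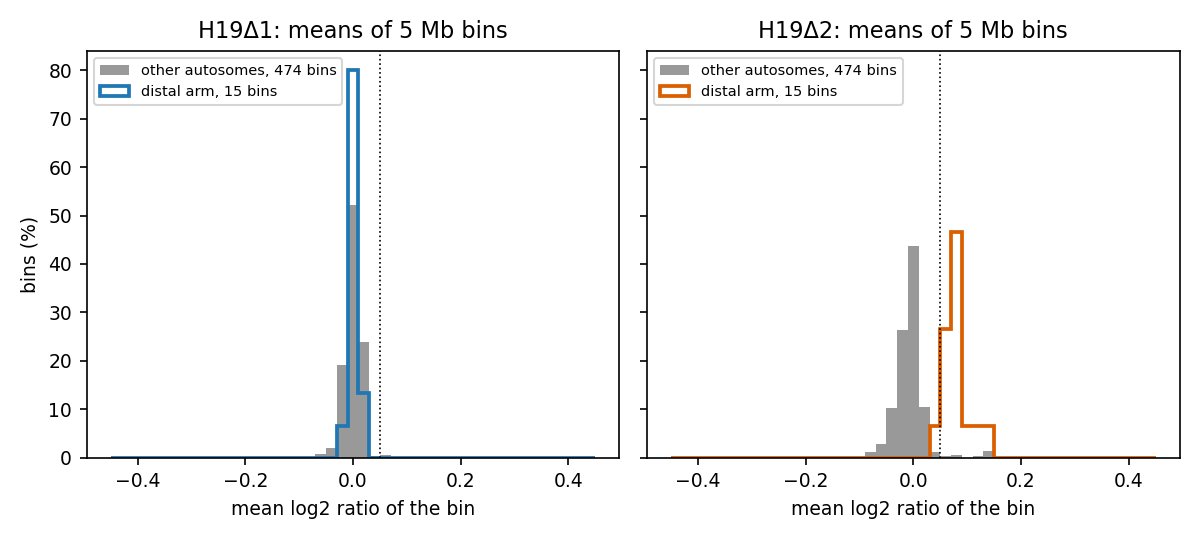
Share of 5 Mb bins (percent) by mean log2 ratio, for the 474 bins of the other autosomes (grey) and the 15 bins of distal chromosome 12 (outline), with H19Δ1 on the left and H19Δ2 on the right. The dotted line is the threshold of 0.05, with 14 of 15 arm bins to its right in H19Δ2 and 0 in H19Δ1.

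The border itself was chosen where the raised block ends in H19Δ2, so the drop there is a description of the choice. The last 3 positions on the proximal side, starting at 49199030, 49224557 and 49267815, stood at 0.52, 0.28 and 0.46 in H19Δ2 and at -0.089, 0.22 and -0.10 in H19Δ1. The first 3 on the distal side, starting at 49303600, 49339871 and 49362712, stood at 0.041, -0.054 and 0.088 in H19Δ2 and at -0.034, -0.090 and 0.088 in H19Δ1. A gap of 35.7 kb without an array position separated the sides. Over flanks of 5 Mb the level fell by 0.40 across the border in H19Δ2, from 0.53 ± 0.11 to 0.13 ± 0.12. In H19Δ1 the flanks were -0.0023 ± 0.12 and -0.00043 ± 0.13.

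Past the border H19Δ2 did not return at once to the level of the outer arm. Segmentation of chromosome 12 by penalised least squares divided the arm of H19Δ2 into a border segment of 8.9 Mb, from 49303600 to 58206273, and an outer segment of 63 Mb, from 58213332 to the end. The border segment averaged 0.13 ± 0.12 over 589 positions and the outer segment 0.075 ± 0.12 over 4231. In H19Δ1, 1 segment at 0.0018 ± 0.12 ran from 31611257 to the end of the chromosome, and the same stretches averaged 0.0073 ± 0.12 and 0.00091 ± 0.12. Both segments were defined on the H19Δ2 values, so their difference in that line is a description.

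The cut between the segments was fitted to the H19Δ2 values and not to those of H19Δ1. What follows therefore describes that choice and cannot set the lines against each other. Border minus outer segment was 0.059 in H19Δ2 and 0.0063 in H19Δ1. The SDs of runs of the same lengths on the other autosomes, combined as if independent, were 0.046 in H19Δ2 and 0.026 in H19Δ1. Those runs were not picked by their level, so they are no measure for a fitted cut. Of 253 runs of 589 positions, 3 were at or above the border segment in H19Δ2, all on chromosome 6. Cut into runs of 106 positions, the border segment held 5 means from 0.111 to 0.15 in H19Δ2, and the outer segment held 39 from 0.037 to 0.107. Their separation is part of the fitted choice. The same runs in H19Δ1, to which the cut was not fitted, went from -0.0057 to 0.016 and from -0.024 to 0.034.

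The place where the level changed inside the arm was less sharp than the border. With flanks of 5 Mb around 58206273 the level fell by 0.060 in H19Δ2, from 0.14 ± 0.12 to 0.079 ± 0.12, and by 0.031 in H19Δ1, from 0.010 ± 0.12 to -0.021 ± 0.12. With flanks of 2 Mb the drops were 0.035 in H19Δ2 and 0.036 in H19Δ1. Close to that position both lines thus dropped by about the same amount. The difference between the lines was 0.13 and 0.12 in the first and second bin of 5 Mb and 0.088 in the third. It was lowest in the fourth, at 0.049, and higher again in the fifth and sixth, at 0.081 and 0.085.

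**Figure D3:**
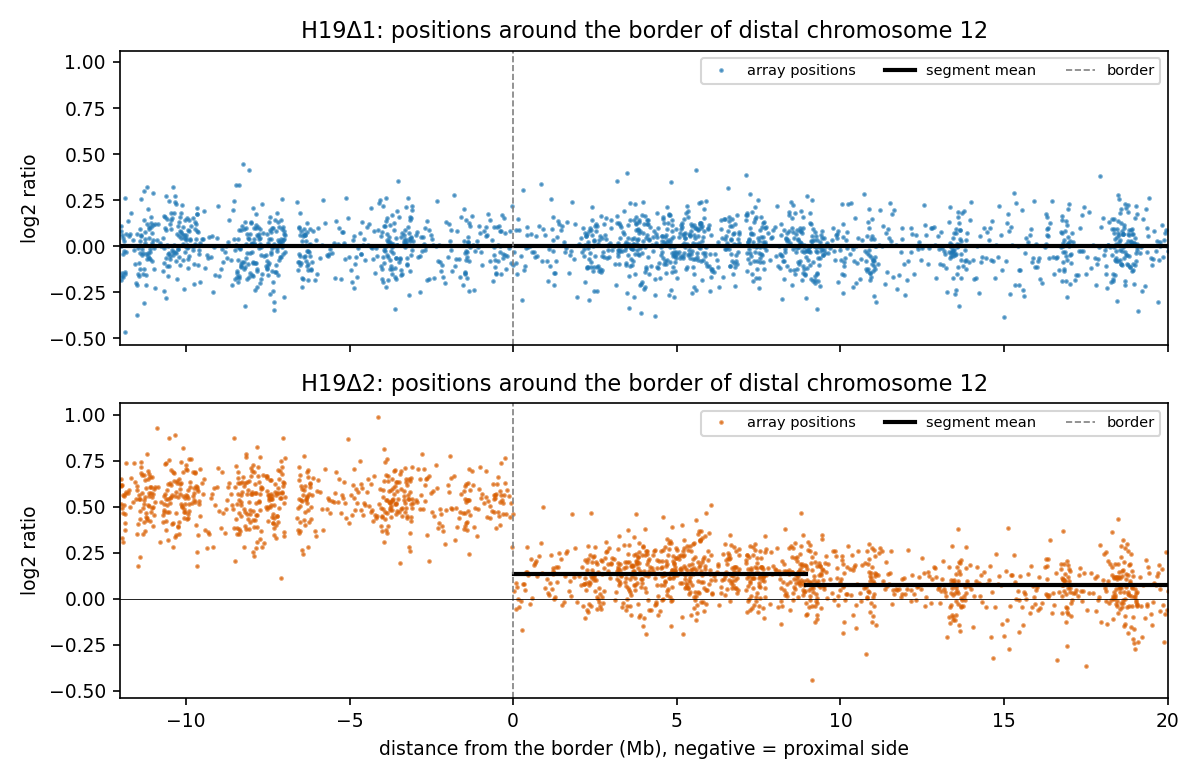
Log2 ratio of single array positions (dots) against the distance from the border in Mb, with H19Δ1 above and H19Δ2 below. Black lines are means of the segments that reach into the distal arm, at 0.0018 in H19Δ1 and at 0.13 and 0.075 in H19Δ2, and the dashed line is the border.

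Each dye was also compared between the arrays, since Cy3 held AGH-OG-3 DNA on both. Over the arm, the log2 of Cy3 on the H19Δ2 array over Cy3 on the H19Δ1 array averaged 0.0014 ± 0.10, and that of Cy5 averaged 0.078 ± 0.14, each centred on its autosomal median. In the border segment the values were -0.00080 ± 0.098 for Cy3 and 0.12 ± 0.13 for Cy5, and in the outer segment 0.0017 ± 0.10 and 0.071 ± 0.14. The difference between the lines over the arm therefore lay in the channel of the H19Δ DNA, while the reference channel differed by less than 0.022 in every 5 Mb bin of the arm. With 1 array per line, the part of extraction and labelling in that difference was not tested.

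**Figure D4:**
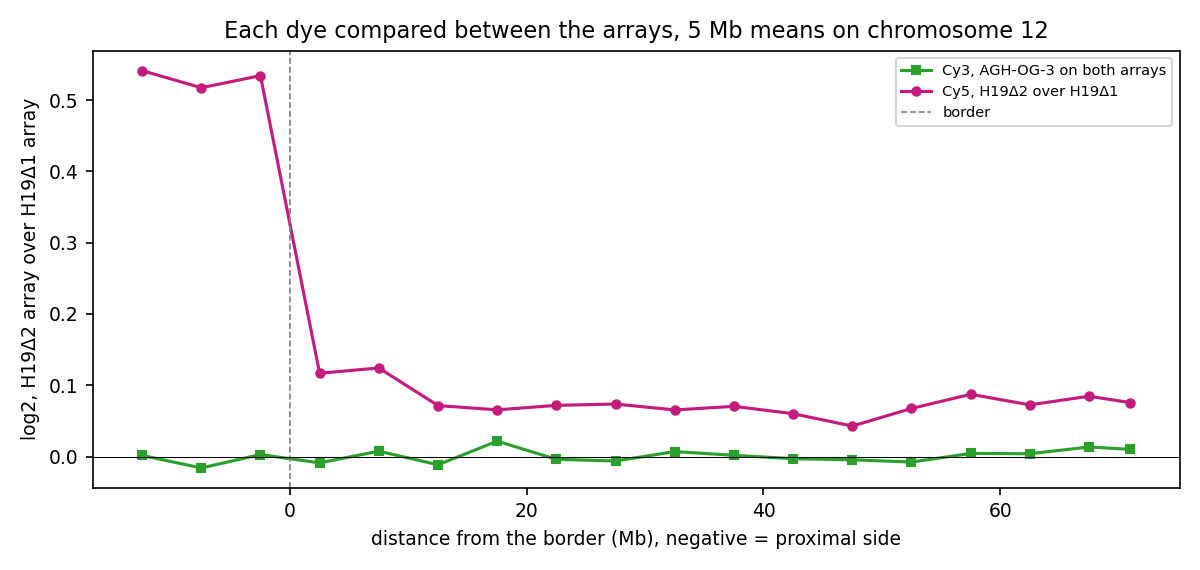
Mean log2 of the H19Δ2 array over the H19Δ1 array in 5 Mb bins along chromosome 12, for Cy3 (squares, AGH-OG-3 DNA on both arrays) and Cy5 (circles, H19Δ DNA), against the distance from the border in Mb. Cy3 stays between -0.016 and 0.022, and Cy5 goes from 0.53 in the last proximal bin to 0.12 in the first distal bin.

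The Dlk1-Dio3 window followed the arm around it in both lines. Its 106 positions, from 110303594 to 111895536 with a largest gap of 50.1 kb, averaged -0.0025 ± 0.13 in H19Δ1 and 0.066 ± 0.12 in H19Δ2. Neighbouring positions within 1 Mb on either side averaged 0.028 ± 0.12 in H19Δ1 and 0.097 ± 0.11 in H19Δ2. Both lines were thus lower inside the window than beside it, by less than the SD of 106-position runs on the other autosomes (0.035 in H19Δ1 and 0.044 in H19Δ2). Within the outer segment, 39 runs of 106 positions spanned -0.024 to 0.034 in H19Δ1 and 0.037 to 0.11 in H19Δ2, and the window lay inside both ranges. Of 1445 runs of 106 positions on the other autosomes, 45 were at or above the window in H19Δ2, 35 of them on chromosome 6. H19Δ2 minus H19Δ1 was 0.069 ± 0.12 in the window and 0.070 ± 0.14 beside it.

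In 8 pieces of 0.2 Mb with 8 to 22 positions each, the means of H19Δ1 were -0.024, 0.066, -0.053, -0.095, 0.023, -0.0039, 0.0091 and 0.045, and those of H19Δ2 were 0.057, 0.043, 0.025, -0.014, 0.054, 0.11, 0.12 and 0.10. The highest piece was the second in H19Δ1 and the seventh in H19Δ2. The fourth piece, from 110.9 to 111.1 Mb with 12 positions, was the lowest in both lines. H19Δ2 was the higher line in 7 of the 8 pieces, the second (110.5 to 110.7 Mb) being the exception.

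Single positions of the window stayed within 0.5 of 0. The highest in H19Δ1 started at 111759703, with 0.44, and stood at 0.24 in H19Δ2. The lowest in H19Δ1 started at 110803029, with -0.40, and stood at -0.17 in H19Δ2. In H19Δ2 the highest, starting at 111828513, reached 0.31 against 0.12 in H19Δ1, and the lowest, starting at 110840070, was -0.27 against 0.21. Segmentation placed no border inside the window in either line, and a change between positions, within gaps of up to 50.1 kb, was not detectable. CGH gives no reading of which Dlk1-Dio3 genes were expressed or methylated.

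**Figure D5:**
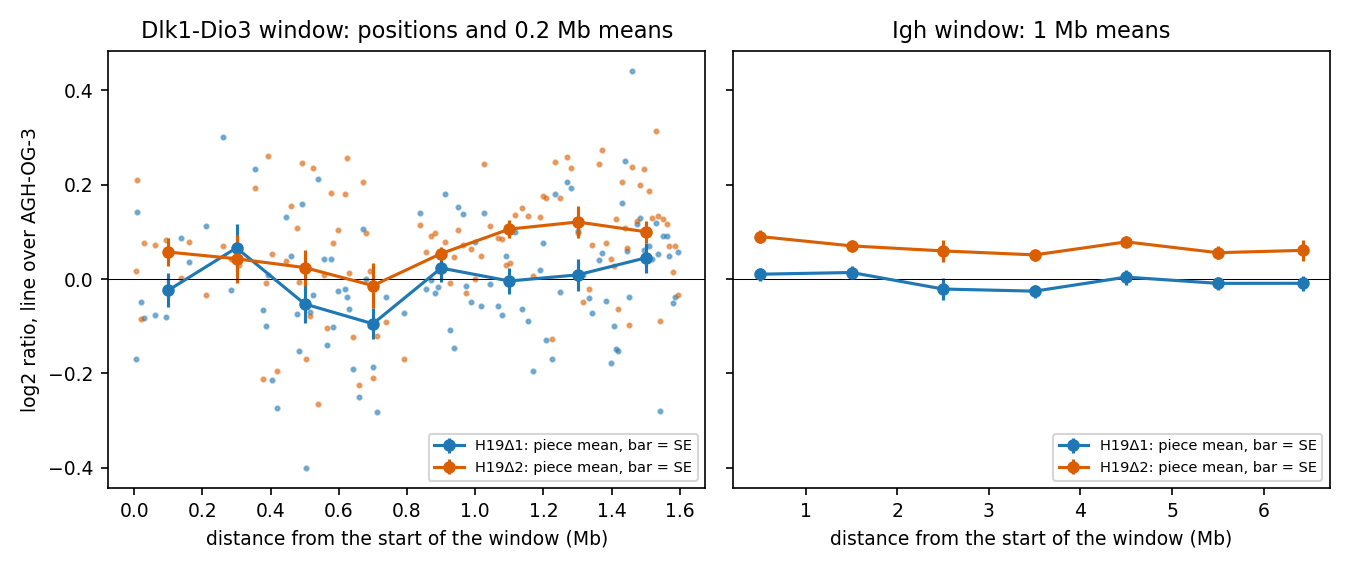
Log2 ratio against the distance from the start of the Dlk1-Dio3 window (left, single positions as dots and 0.2 Mb means as circles) and of the Igh window (right, 1 Mb means), in Mb, for H19Δ1 (blue) and H19Δ2 (orange), with standard errors over positions as bars. The H19Δ2 means lie above those of H19Δ1 except in the second piece of the Dlk1-Dio3 window, and both lines are lowest there in the fourth piece.

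The Igh window kept the level of the outer arm to the end of the chromosome. Its 459 positions averaged -0.0041 ± 0.13 in H19Δ1 and 0.068 ± 0.12 in H19Δ2, with H19Δ2 minus H19Δ1 at 0.073 ± 0.13. In 7 pieces of up to 1 Mb the means of H19Δ1 ran from -0.025 to 0.014 and those of H19Δ2 from 0.051 to 0.090. The first piece, from 114.4 to 115.4 Mb, was the highest in H19Δ2, and the last, ending at 121252543, stood at -0.0088 ± 0.10 in H19Δ1 and 0.061 ± 0.15 in H19Δ2. Between the Dlk1-Dio3 and Igh windows the lines stood at 0.025 ± 0.12 and 0.10 ± 0.11 over 221 positions. Equally long runs elsewhere had an SD of 0.024 in H19Δ1 and 0.034 in H19Δ2, and 9 of 328 in H19Δ2 were at or above the window, 8 of them on chromosome 6. The window was thus lower than the stretch before it in both lines, and segmentation placed no border inside it.

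One position of the Igh window was past 0.5 in size. It started at 117887802 and stood at -0.70 in H19Δ1 but at 0.042 in H19Δ2. Its Cy5 intensity on the H19Δ1 array was 71.6, against an arm median of 1048, and its neighbours in that line stood at 0.013 and 0.063. The highest position of the window was 0.34 in H19Δ1 (starting at 118483370, 0.36 in H19Δ2) and 0.41 in H19Δ2 (starting at 120565840, -0.32 in H19Δ1), and the lowest in H19Δ2 was -0.34 (starting at 120817204, -0.0087 in H19Δ1).

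Over the whole arm, few single positions stood out. Values above 0.5 numbered 0 in H19Δ1 and 4 in H19Δ2, or 0.083% of its positions, beside 0.102% and 1.16% of all autosomal positions. Without chromosome 12, 0.198% of autosomal positions were above 0.5 in H19Δ2. Values below -0.5 numbered 4 in H19Δ1 and 1 in H19Δ2, where the autosomal shares were 0.208% and 0.0936%. Both counts were no more frequent on the arm than on other autosomes.

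At the lower threshold the lines differed. Values above 0.25 numbered 111 in H19Δ1 (2.30% of positions, against 2.57% of autosomal positions) and 388 in H19Δ2 (8.05%, against 4.26%, or 2.73% without chromosome 12). Values below -0.25 numbered 111 in H19Δ1 (2.30%, against 2.65%) and 40 in H19Δ2 (0.830%, against 2.73%). In H19Δ1 the counts of both sides were equal, whereas in H19Δ2 the high side outnumbered the low side.

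One position was low in both lines. It started at 81892528 and stood at -0.65 in H19Δ1 and -1.03 in H19Δ2, with Cy3 at 1907 and 1940 and Cy5 at 1227 and 955, so that it was no dim spot. Its neighbours stood at 0.080 and -0.23 in H19Δ1 and at 0.15 and -0.091 in H19Δ2, and the low value was thus carried by 1 probe. Both lines were set against the same reference DNA, and whether the reference or the lines differ there cannot be told apart.

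The other extreme positions were seen in 1 line or reached lower values in the other. In H19Δ1 the lowest, starting at 71452350, stood at -0.85 against -0.16 in H19Δ2. The highest in H19Δ1, starting at 89595501, stood at 0.48 against 0.015, and the next named position, starting at 85899134, at 0.42 with no value in H19Δ2. In H19Δ2 the 3 highest, starting at 98830815, 106650741 and 85526255, stood at 0.53, 0.52 and 0.51, and at 0.32, 0.30 and 0.31 in H19Δ1. The next lowest in H19Δ2, starting at 107968045 and 58396018, stood at -0.48 and -0.44, and at -0.016 and 0.25 in H19Δ1. Each of these values came from a single spot, and none had a neighbour past 0.25 in size on its own array.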

How the data were processed

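DNA of H19Δ1 and H19Δ2 (Cy5) was hybridised against AGH-OG-3 (Cy3), 1 array per line. The authors deposited Feature Extraction output (version 11.5.1.1 in the file headers, 10.10 in the submitters' processing notes) with background-subtracted, dye-normalised intensity per spot on mm9. The log10 ratios (Cy5 against Cy3) deposited per spot recur in the series matrix. Number of columns belonging to other samples: 0.

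Log2 ratios were computed from the processed intensities, without loess. Control and outlier-flagged spots were left out, spots of a position averaged, and each array centred on its autosomal median (0.011 and 0.0080 subtracted), so levels are relative. Segments were found by penalised least squares (penalty factor 2, at least 3 positions). On simulated data the method was required to find only steps larger than that between the border and outer segments. The absence of a border thus does not exclude a small step. Bins counted against a threshold held at least 50 positions, and 1 Mb bins and the pieces of the windows had no minimum. The spread of a mean is the SD of equally long consecutive runs on the other autosomes.

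Genes served as background only. Positions named singly were the 3 nearest the border on each side, the 3 highest and 3 lowest of the arm, and, for each window, its extremes and positions past 0.5. Members, lists and thresholds were chosen with earlier results of these data known. Alternatives were normexp (offset 50, on median signals, as mean signals were not used here), the deposited log ratio, the series matrix, loess, other spot filters, centrings, windows, bins and thresholds. Python 3.11.15, numpy 2.4.6, pandas 2.3.3, R 4.3.3 and limma 3.58.1 were used. With 1 array per line, their number limits the precision.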

Additional observations from a re-analysis of the deposited data

How the results depend on the processing

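Of 331 values recomputed for 27 results, 313 stayed within the spread (or within 1.5 times a count), 18 moved and 0 reversed. The tally includes alternatives that could not move a result. Centring leaves a difference between stretches of an array unchanged, and the deposited log ratio and series matrix repeat the main ratios. For the remaining arm, the Igh window was already absent and the first 5 Mb stayed in, so both alternatives returned the main value. The tally is also a loose measure where the spread is large, as for the Dlk1-Dio3 difference between the lines (0.069, spread 0.063). A change of sign within the spread counted as staying. The Dlk1-Dio3 window of H19Δ1, for instance, went from -0.0025 to 0.017 when made 1 Mb longer at each end. The arm mean stayed between 0.076 and 0.094 in H19Δ2 over its 13 alternatives, and that of H19Δ1 was 0.013 without centring. Border minus outer segment, a result added after the data were seen, stayed between 0.057 and 0.066 in H19Δ2 over 11 alternatives. The cut was held in place for these, and centring cannot change a difference, so the narrow range was partly fixed in advance. Refitted, the border segment ended at 58386935 with loess, at 58379582 with normexp and at 58206273 in the other settings. It began at 49224557 with each spot counted on its own and at 49163811 with normexp, both before the border. Counts moved with their definition. Bins above the threshold in H19Δ2 numbered 33 at 2 Mb, 8 at 10 Mb and, above 0.1, 2. Positions above the threshold numbered 111 in H19Δ1 and 388 in H19Δ2 at 0.25, and 0 in H19Δ2 at 1. Those below numbered 111 and 40 at 0.25, and 0 in H19Δ1 at 1. With normexp, 12 positions in H19Δ1 and 47 in H19Δ2 were above 0.5 and 2 in each line below -0.5. With loess, 1 and 7 were above 0.5, and H19Δ2 had 4 segments in the arm in place of 2, the extra border enclosing 3 positions around 81892528. With each spot counted on its own, H19Δ1 had 3 segments in place of 1, the extra one being 3 spots of the same position, starting at 101166507. The cause of the other changes was not tested. No paired analysis was possible because the lines share no replicate number beyond their single arrays. GC content was left uncorrected, since no probe sequence or mm9 genome was used here. The number of arrays limits every comparison of the lines.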
